A study of Mus musculus with 6 samples.

Results

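The mitochondrially encoded genes of the mouse were examined in monocytes sorted from the inflamed CNS. They were taken as every gene whose GENCODE M21 symbol begins with mt-, which gave 37 of the 54232 genes in the deposited files: 2 rRNA genes, 13 protein-coding genes and 22 tRNA genes, all on chromosome M of GRCm38. The libraries came from mixed bone marrow chimeras, in which lethally irradiated GFP+ recipients were given equal parts of WT (CD45.1) and Ifnar1-/- (CD45.2) marrow, so recipient mice could contribute to both groups. After reconstitution EAE was induced, a mouse model of multiple sclerosis, and all mice were treated every day with IFN-b at 30000 IU. At the peak of disease, donor-derived GFP-CD45+CD11b+Ly6ChiLy6G- monocytes of each genotype were sorted from the CNS, giving 3 WT and 3 Ifnar1-/- libraries of total RNA. IFNAR1 is a chain of the receptor for type I IFNs, so that the groups differ in whether monocytes could respond to the IFN-b given. No library came from untreated mice, the labels do not give the age of the mice, and the CD45 allele of the donor differs between the groups together with Ifnar1.

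Mitochondrial DNA is a small circular genome whose heavy and light strands are each transcribed by the polymerase POLRMT as long RNAs. These are cut at the tRNAs into rRNAs, mRNAs and tRNAs, and most of the mRNAs are then polyadenylated by MTPAP and stabilized by LRPPRC. The mRNAs encode core subunits of respiratory complexes I, III and IV and of ATP synthase, and the other subunits of these complexes are encoded in the nucleus. Fragments of mitochondrial DNA have also been copied into nuclear chromosomes during evolution, and reads from such a copy and from the mitochondrial gene can be identical.

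The files hold expected counts from RSEM, where a read that matches more than a single gene is shared out between the candidates, and the totals were 4531782 to 7321380 per library. Ifnar1 itself lay between 111 and 153 normalized CPM (counts scaled by the TMM method to a common library size) in WT and between 102 and 109.9 in Ifnar1-/- libraries, so counts over the whole gene do not separate the genotypes clearly (log2 fold change 0.28, SE 0.15, edgeR adjusted p = 0.360). All 7 monocyte markers were detected, and their summed level was 7801.5 to 9587 normalized CPM in WT and 8262 to 9523 in Ifnar1-/- libraries. Lyz2 is the largest part of this sum, and of the 7 markers Ly6c2, which encodes the sort marker Ly6C, was called higher in WT, at 640 to 788 normalized CPM against 177 to 337 (log2 fold change 1.40, SE 0.23, adjusted p = 0.00957). Fcgr1 was at 271 to 413 in WT and 192 to 203 in Ifnar1-/- libraries (adjusted p = 0.0839), and Ccr2 at 587 to 694 and 794 to 1269 (adjusted p = 0.143), neither with overlap. Summed neutrophil markers ranged from 116 to 1232 and from 443 to 1751 normalized CPM, and those of microglia from 242 to 322 and from 285 to 363. Summed T cell markers were low but did not overlap, at 16.8 to 40.8 in WT and 6.78 to 15.1 in Ifnar1-/- libraries, and summed B cell markers were at 1.49 to 1.71 and 0.305 to 1.10. Summed erythroid markers were at most 4.60 normalized CPM in any library and neural markers 44.1 to 61.2. The part of these cells in the results was not tested. WT library 1 stood apart in Rn7s2, a 7SL RNA of the signal recognition particle, which took 4.12% of its counts against 0.882% to 1.65% in the other 5 libraries.

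Sequence identity with the nucleus decides how far the values of some members can be read, so the sequences are given first. A search of the GENCODE M21 transcripts found 20 nuclear genes that match a member, and 11 of these are at least 95% identical to it over the aligned stretch. Of these near-identical copies, 7 lie side by side on chromosome 1, within chr1:24611535-24616197, 3 lie on chromosome 2 and 1 on chromosome 13. On chromosome 1, Gm28661 matches mt-Co2 exactly over 681 bases, Gm10925 matches mt-Atp6 over 678 bases, Gm28437 matches mt-Co3 over 783 bases, and Gm10222 matches mt-Nd4l over 294 bases. The 3′ ends of 3 pairs are shown 5′ to 3′ because they hold the whole difference between the annotated transcripts, and capitals mark the bases of the member that its nuclear copy lacks. The positions are chrM:7637-7696 (+) and chr1:24614885-24614941 (-) for mt-Co2 and Gm28661, chrM:8548-8607 (+) and chr1:24613974-24614030 (-) for mt-Atp6 and Gm10925, and chrM:9331-9390 (+) and chr1:24613189-24613247 (-) for mt-Co3 and Gm28437.
mt-Co2: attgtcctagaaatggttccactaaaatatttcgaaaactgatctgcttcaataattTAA
Gm28661: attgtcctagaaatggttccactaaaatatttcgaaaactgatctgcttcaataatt
mt-Atp6: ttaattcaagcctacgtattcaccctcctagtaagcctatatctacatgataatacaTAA
Gm10925: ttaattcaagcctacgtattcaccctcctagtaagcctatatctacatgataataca
mt-Co3: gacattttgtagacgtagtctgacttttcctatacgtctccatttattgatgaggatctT
Gm28437: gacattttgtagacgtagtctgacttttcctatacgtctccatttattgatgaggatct

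The shortest mRNA is mt-Atp8, with 204 bases (chrM:7766-7969, +), and it is shown whole because it was the only member past the threshold. Its last 43 bases, in capitals, are also the first 43 bases of mt-Atp6. Of the tRNA genes, the longest and the shortest are shown, mt-Tl1 (chrM:2676-2750, +), a leucine tRNA, and mt-Ts2 (chrM:11613-11671, +), a serine tRNA, since their length bears on their values.
mt-Atp8: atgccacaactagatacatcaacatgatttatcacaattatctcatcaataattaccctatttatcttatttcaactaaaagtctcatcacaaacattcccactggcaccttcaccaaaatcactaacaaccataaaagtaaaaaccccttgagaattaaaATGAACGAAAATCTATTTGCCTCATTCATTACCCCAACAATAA
mt-Tl1: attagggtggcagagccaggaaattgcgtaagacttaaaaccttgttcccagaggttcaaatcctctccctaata
mt-Ts2: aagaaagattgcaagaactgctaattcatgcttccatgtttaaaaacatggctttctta

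All 22 tRNA genes, of 59 to 75 bases, were listed at 0 expected counts in all 6 libraries. They also had an effective length of 0 in every library, which is the number of positions at which a fragment of the sequenced size could start. The mean fragment length implied by the files, the length of a long transcript minus its effective length plus 1, was 174 to 206 bases. With an effective length of 0 no level or limit of detection can be given for the tRNAs. The other 15 members, the 2 rRNAs and the 13 mRNAs, passed the filter on low counts and were tested among 11254 genes.

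The rRNAs of the mitochondrial ribosome had by far the most counts of the members. mt-Rnr1, the small-subunit rRNA (chrM:70-1024), had 39340.3, 35625 and 44976 normalized CPM in WT libraries 1 to 3 and 71581, 39464 and 56128 in Ifnar1-/- libraries 1 to 3. mt-Rnr2, the large-subunit rRNA (chrM:1094-2675), had 89054, 101289 and 127221 normalized CPM in WT and 167916, 109040.2 and 140406 in Ifnar1-/- libraries. For both rRNAs Ifnar1-/- library 2 lay among the WT libraries, so the groups overlapped. The log2 fold change, WT over Ifnar1-/- here and throughout, was -0.48 for mt-Rnr1 (SE 0.28, adjusted p = 0.412) and -0.39 for mt-Rnr2 (SE 0.30, adjusted p = 0.533, edgeR quasi-likelihood test). The rRNAs are cut from the same long RNA, and the count of mt-Rnr1 per count of mt-Rnr2 was 0.442, 0.352 and 0.354 in WT and 0.426, 0.362 and 0.400 in Ifnar1-/- libraries. The log2 of this ratio differed by -0.06 between the group means (WT minus Ifnar1-/-), which is less than the spread between libraries (two-sided exact permutation test, p = 0.8, where the smallest p possible with 3 libraries against 3 is 0.1).

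As a share of all expected counts, the mitochondrially encoded genes took 12.97%, 14.7% and 18.4% in WT libraries 1 to 3 and 23.6%, 15.9% and 20.4% in Ifnar1-/- libraries 1 to 3. The means differed by -4.63 percentage points (WT minus Ifnar1-/-), with an SD of 2.77 in WT and 3.86 in Ifnar1-/- libraries (n = 3 each), and the groups overlapped. This difference was -2.81 without Ifnar1-/- library 1 and -6.65 without Ifnar1-/- library 2. It was -6.95 as a percent of the counts of nuclear genes other than rRNA. That denominator is smaller and leaves out the mitochondrial counts, so the value is on a larger scale than the shares of all counts. Nearly all of the mitochondrial share of all counts was rRNA, with 12.3% to 17.6% in WT and 15.1% to 22.7% in Ifnar1-/- libraries. The study's methods do not say whether rRNA was removed before sequencing. Shares and ratios of rRNA here describe the sequenced counts, and levels in the cells may differ. The 13 mRNAs together took 0.644%, 0.531% and 0.768% of the counts in WT and 0.949%, 0.865% and 0.790% in Ifnar1-/- libraries. Each WT library thus lay below each Ifnar1-/- library in mRNA share, although WT library 3 and Ifnar1-/- library 3 were close. The mean mRNA share was 0.648% ± 0.118 (SD, n = 3) against 0.868% ± 0.0799 (SD, n = 3). Within protein-coding counts alone, the mRNAs took 0.721% to 1.06% in WT and 1.14% to 1.43% in Ifnar1-/- libraries. There were 19.1, 26.8 and 23.0 rRNA counts for each mRNA count in WT and 23.9, 17.4 and 24.9 in Ifnar1-/- libraries, so the proportion of rRNA to mRNA showed no separation of the groups. These sums are given as descriptions without a test, and since whole sorted populations were sequenced, fewer mitochondrial transcripts per cell and fewer cells rich in them cannot be told apart.

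**Figure D1:**
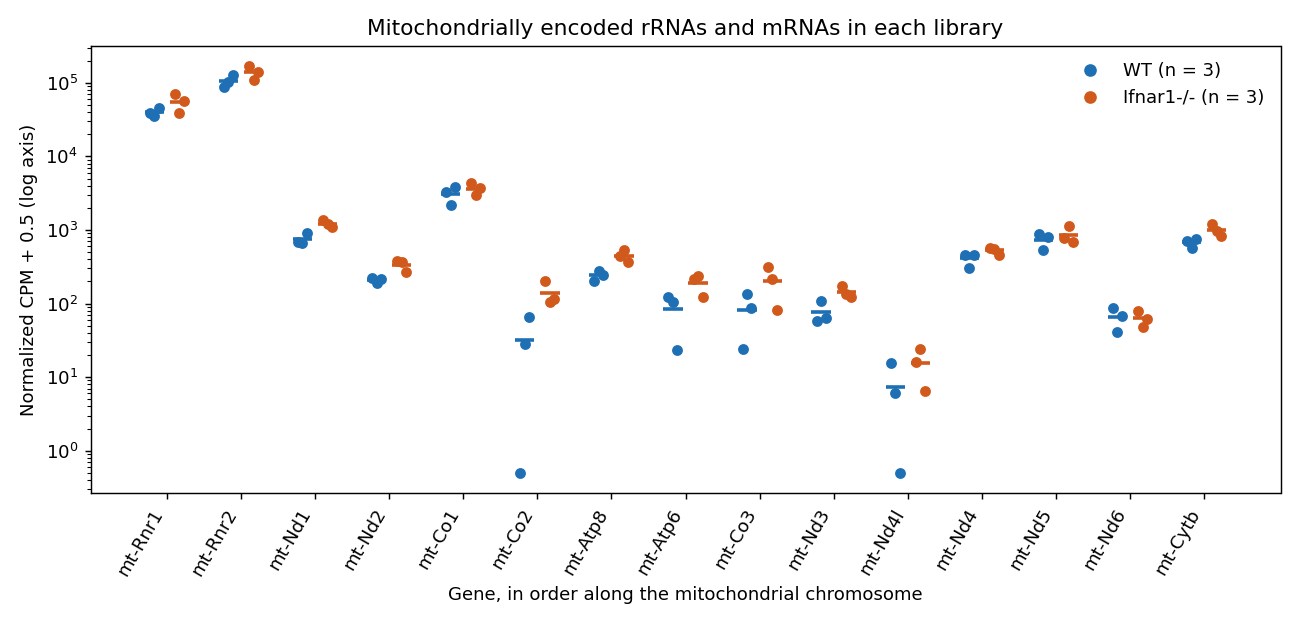
Normalized CPM plus 0.5 on a log axis for the 2 rRNAs and 13 mRNAs, in order along the mitochondrial chromosome, with a point for each library and a bar at each group mean (n = 3). The rRNAs lie between 35625 and 167916 normalized CPM, and mt-Co2 in WT library 1 and mt-Nd4l in WT library 3 are the points at 0.

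Of the 15 tested members, 14 had a log2 fold change below 0, with a median of -0.67, against a median of -0.01 over all tested genes, of which 51.8% were below 0. Members of the same strand are cut from a shared long RNA, so these 14 are not independent observations. A gene was called when it differed at least 1.5-fold with an adjusted p no higher than 0.05. By this rule 1 member was lower in WT (mt-Atp8), where 0.462% of all tested genes were, and 0 were higher, where 1.67% of all tested genes were. At an unadjusted p under 0.05, 8 members were lower and none were higher in WT, and 17.8% of all tested genes differed in either direction. In 6 members every WT library lay below every Ifnar1-/- library, as did 12.2% of all tested genes, and the two-sided exact permutation test gave p = 0.1 for each of the 6, the smallest value it can reach here. The DESeq2 test called 4 members lower, namely mt-Nd1, mt-Nd2, mt-Nd3 and mt-Atp8, and 0 higher, where it called 1.02% of all tested genes lower and 3.15% higher.

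Among the subunits of complex I, the NADH dehydrogenase through which electrons enter the chain, mt-Nd1 (chrM:2751-3707) had 676, 666 and 908 normalized CPM in WT and 1350.1, 1212 and 1091 in Ifnar1-/- libraries. The groups did not overlap (log2 fold change -0.70, SE 0.18, adjusted p = 0.0852). mt-Nd2 (chrM:3914-4951) had 224, 191 and 218 normalized CPM in WT and 374, 365 and 269 in Ifnar1-/- libraries, again without overlap (log2 fold change -0.67, SE 0.17, adjusted p = 0.0770). mt-Nd3 (chrM:9459-9806) had 57.9, 109 and 64.0 normalized CPM in WT and 175, 134 and 121 in Ifnar1-/- libraries, also without overlap (log2 fold change -0.91, SE 0.24, adjusted p = 0.0919). All 3 of these subunits belong to the membrane arm that pumps protons, and none of them passed the threshold in the edgeR test.

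mt-Nd4 (chrM:10167-11544) and mt-Nd5 (chrM:11742-13565), which also encode subunits of this membrane arm, overlapped between the groups. mt-Nd4 had 463, 306 and 459.6 normalized CPM in WT and 573, 556 and 459 in Ifnar1-/- libraries (log2 fold change -0.37, SE 0.19, adjusted p = 0.341). mt-Nd5 had 874, 528 and 791 in WT and 771, 1133 and 696 in Ifnar1-/- libraries (log2 fold change -0.25, SE 0.24, adjusted p = 0.632). mt-Nd6 (chrM:13552-14070) is the only mRNA of the light strand and the only member with a log2 fold change above 0. It had 85.2, 40.4 and 67.5 normalized CPM in WT and 78.6, 48.1 and 61.4 in Ifnar1-/- libraries, and the groups overlapped (log2 fold change 0.04, SE 0.26, adjusted p = 0.957). The sign for mt-Nd6 turned when WT library 1 was left out (-0.21) or Ifnar1-/- library 2 was left out (-0.10), and that for mt-Nd5 turned without the latter (0.0091). The 3′ ends of mt-Nd6 and mt-Nd5 overlap on opposite strands, and the strand setting of the counting is not given in the sources used here.

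mt-Cytb (chrM:14145-15288) encodes cytochrome b, the sole mitochondrially encoded subunit of complex III. It had 716, 560.5 and 765 normalized CPM in WT and 1199.5, 973 and 839 in Ifnar1-/- libraries, so every WT library was below every Ifnar1-/- library. This difference did not pass the threshold (log2 fold change -0.56, SE 0.19, adjusted p = 0.164).

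Complex IV, cytochrome c oxidase, takes its catalytic core from mt-Co1, mt-Co2 and mt-Co3. mt-Co1 (chrM:5328-6872) had the most counts of the mRNAs in every library before nuclear copies were considered, with 3248, 2158 and 3800.1 normalized CPM in WT and 4319, 2983 and 3674 in Ifnar1-/- libraries. Its groups overlapped widely (log2 fold change -0.25, SE 0.24, adjusted p = 0.625). mt-Co2 (chrM:7013-7696) was listed at 0, 27.4 and 65.7 normalized CPM in WT and at 199, 103 and 117 in Ifnar1-/- libraries. mt-Co3 (chrM:8607-9390) was listed at 23.3, 136 and 87.3 in WT and at 311, 218 and 81.7 in Ifnar1-/- libraries. The log2 fold changes of -2.20 for mt-Co2 (SE 0.89, adjusted p = 0.233) and -1.32 for mt-Co3 (SE 0.57, adjusted p = 0.257) were large but poorly determined, and both genes share nearly all of their sequence with a nuclear copy.

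ATP synthase has 2 mitochondrially encoded subunits, whose reading frames overlap on 1 mRNA. mt-Atp8 had 204, 279.7 and 247 normalized CPM in WT and 443, 531 and 366 in Ifnar1-/- libraries, or 244 ± 38.0 (SD, n = 3) against 447 ± 82.5 (SD, n = 3). Each WT library was below each Ifnar1-/- library, and the WT level was 54.5% of the Ifnar1-/- level (log2 fold change -0.88, SE 0.18, adjusted p = 0.0400, edgeR). mt-Atp6 (chrM:7927-8607), which is carried on the same mRNA, was listed at 123, 106 and 23.1 normalized CPM in WT and at 216, 235 and 122 in Ifnar1-/- libraries, with overlap (log2 fold change -1.18, SE 0.47, adjusted p = 0.228). The call for mt-Atp8 lay close to the threshold, and its adjusted p was between 0.0513 and 0.159 when any of the 6 libraries was left out, so that it was no longer called in any of these 6 fits. Without WT library 2 the only member called was mt-Nd3 (log2 fold change -1.23, adjusted p = 0.0175).

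How the counts were divided between a member and its nuclear copy was next examined, since the sequences leave almost nothing to divide them by. For mt-Co2, the nuclear copy Gm28661 held 5474, 2707 and 4129.8 expected counts in WT and 7469.6, 4833 and 4968 in Ifnar1-/- libraries, which was 85.1% to 100% of the counts of the pair. Gm10925 held 86.6% to 98.8% of its pair with mt-Atp6, Gm28437 held 85.7% to 97.0% of its pair with mt-Co3, and Gm10222 held 74.0% to 100% of its pair with mt-Nd4l. Thus in these 4 pairs most counts were listed under the nuclear pseudogene in every library. The remaining copies took little: Gm29216 took 0.208% to 1.06% of its pair with mt-Co1, and the other 6 copies had at most 15.3 expected counts in any library. Together the 11 copies held 29.4% to 41.3% of all counts of the 13 mRNAs plus the copies, and this share overlapped between the groups.

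**Figure D2:**
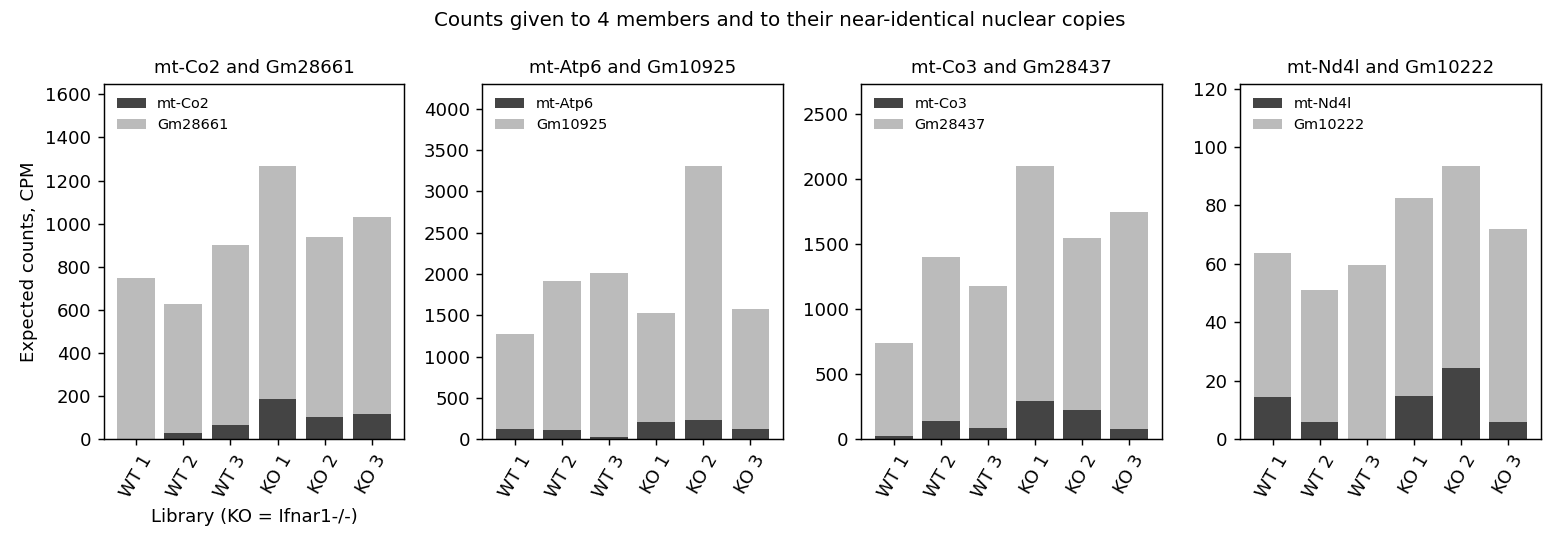
Expected counts in each library, scaled to CPM (KO stands for Ifnar1-/-), stacked for 4 members (dark) and the nuclear copy of each (light), with axes that start at 0 and differ between panels. In every library the light part is the larger, and it makes up the whole bar for mt-Co2 in WT library 1 and for mt-Nd4l in WT library 3.

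The copies were then added to their members and the fit was repeated, an alternative chosen after the data were seen. mt-Co2 with its copies had 779, 603 and 881 normalized CPM in WT and 1341, 923 and 1030.3 in Ifnar1-/- libraries, and its log2 fold change moved from -2.20 to -0.54 (SE 0.20, adjusted p = 0.197). mt-Co3 had 769, 1353 and 1152 in WT and 2223, 1527 and 1749.9 in Ifnar1-/- libraries (log2 fold change -0.75, SE 0.23, adjusted p = 0.139). mt-Nd4l, which alone had only 0 to 23.9 normalized CPM, had 66.4, 49.3 and 58.2 in WT and 87.4, 92.2 and 72.1 in Ifnar1-/- libraries (log2 fold change -0.53, SE 0.16, adjusted p = 0.129). The summed levels of these 3 genes did not overlap between the groups and their standard errors were smaller than for the members alone, but none passed the threshold. mt-Atp6 with its copy had 1329.5, 1849 and 1970.3 normalized CPM in WT and 1612, 3259.9 and 1577 in Ifnar1-/- libraries, so that the groups overlapped and Ifnar1-/- library 2 stood above the others, and above the 2997 of mt-Co1 with its copies in that library (log2 fold change -0.32, SE 0.29, adjusted p = 0.600). In this fit 14 of the 15 members were again below 0, the median was -0.53, and mt-Atp8, for which the search of annotated transcripts found no match of at least 75 bases, was the only member called. Gm10925 matches mt-Atp6 from its first base and so holds the 43 bases that mt-Atp8 shares with it, and nuclear sequence outside annotated transcripts was not searched. Of the 5 copies that were tested on their own, none was called, and their log2 fold changes were -0.26 for Gm10925, -0.41 for Gm28661, -0.43 for Gm10222, -0.69 for Gm28437 and -1.29 for Gm29216 (adjusted p from 0.144 to 0.70).

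Adding the copies also changed the order of the mRNAs when levels were compared per length, in the FPKM of the files, which are scaled to effective length and to library size. Alone, mt-Co2 had 0 to 370.3 FPKM and mt-Co3 had 38.1 to 482 FPKM, against 1664 to 2983 FPKM for mt-Co1, the other gene of the complex IV core. With the copies, mt-Co2 had 1297 to 2502 FPKM and mt-Co3 1256 to 3456 FPKM, next to 1728 to 3104 FPKM for mt-Co1. Expressed as a percent of mt-Co1 in the same library, mt-Co2 went from at most 12.4% to between 64.6% and 83.2%. mt-Atp6 went from at most 21.6% of mt-Co1 to between 97.5% and 296%.

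With the copies added, the mRNAs ran in mean FPKM over the 6 libraries from mt-Atp8 (9363) through mt-Atp6 (3962), mt-Co1 (2531), mt-Co3 (2436), mt-Co2 (1858), mt-Nd1 (1270), mt-Cytb (873), mt-Nd3 (676), mt-Nd4l (637), mt-Nd5 (487), mt-Nd4 (394) and mt-Nd2 (319) to mt-Nd6 (191). The ATP synthase and complex IV mRNAs were thus above the complex I and III mRNAs, and the light-strand mRNA was last. Between neighbours in this order, the ranges over the 6 libraries always overlapped. Within libraries, mt-Co1 was above mt-Co3 in only 2 of 6 and mt-Nd3 above mt-Nd4l in 4 of 6, so these pairs cannot be ordered, while the other 10 neighbours kept their order in 5 or 6 of 6 libraries. The high FPKM of mt-Atp8 rests on division by an effective length of only 26.9 to 45.5 bases. The rRNAs, at 48906 to 86797 FPKM for mt-Rnr1 and 61635 to 112935 FPKM for mt-Rnr2, were above every mRNA.

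**Figure D3:**
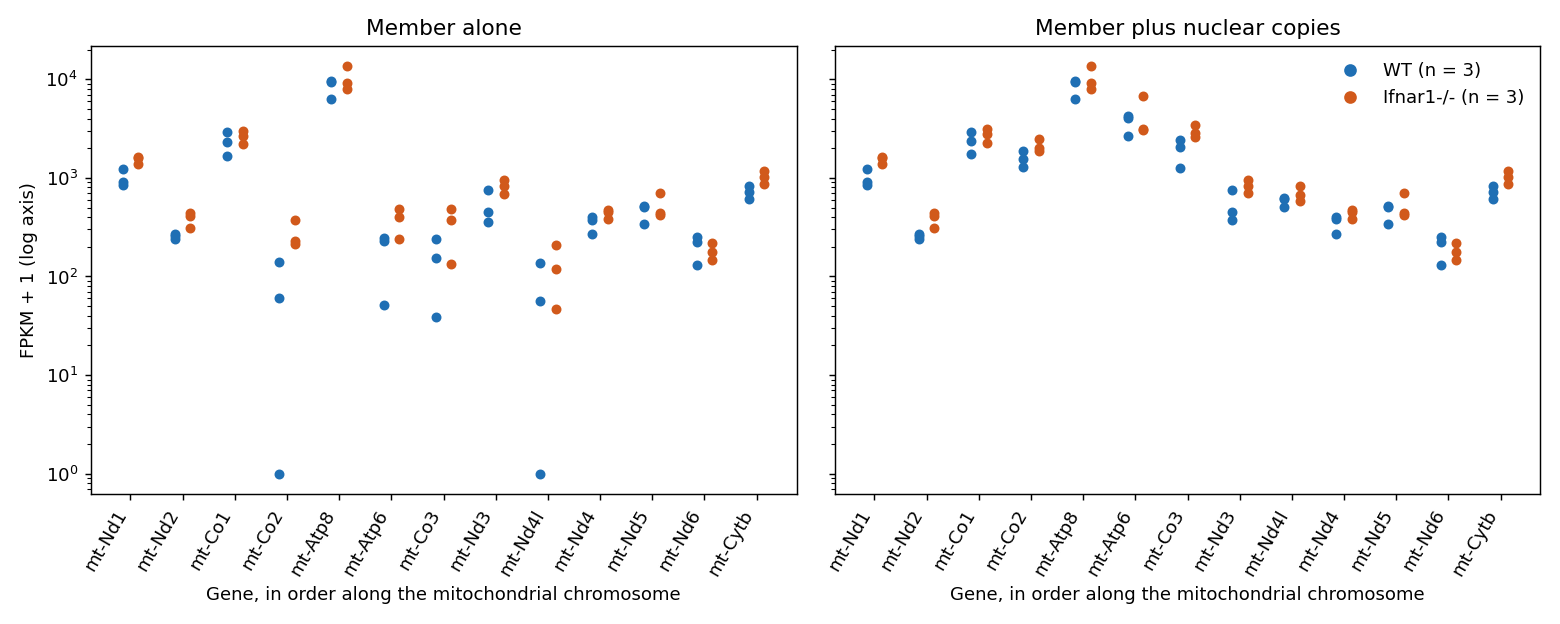
FPKM plus 1 on a log axis for the 13 mRNAs in order along the mitochondrial chromosome, with a point for each library, for the member alone on the left and for the sum with its nuclear copies on the right. mt-Co2, mt-Atp6 and mt-Co3 move from at most 482 FPKM to at least 1256 FPKM, while genes with few copy counts stay in place.

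Fragment size differed between the groups, and this bears on the shortest members. The implied mean fragment length was 196, 199.7 and 206 bases in WT and 175, 186 and 174 bases in Ifnar1-/- libraries, without overlap. For mt-Atp8, whose 204 bases are close to one fragment, the effective length was 31.4, 29.9 and 26.9 bases in WT and 45.5, 39.8 and 45.5 bases in Ifnar1-/- libraries. In FPKM, which divides by this length, mt-Atp8 had 6242, 9714 and 9415 in WT and 9227, 13552 and 8026 in Ifnar1-/- libraries, and the groups overlapped. With the effective lengths as offsets in the edgeR fit, the call for mt-Atp8 was lost (log2 fold change -0.32, SE 0.22, adjusted p = 0.530). For mt-Nd3, the shortest mRNA after mt-Atp8 and mt-Nd4l, the groups also overlapped in FPKM. It had 359, 746 and 452 FPKM in WT and 949, 829 and 688 in Ifnar1-/- libraries. With effective length offsets in the edgeR fit, its log2 fold change moved from -0.91 to -0.71 (SE 0.24, adjusted p = 0.203). Over the 15 members 14 remained below 0 in this fit, with a median of -0.53 and 0 called.

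Base composition is a further property in which the members stand apart from other transcripts. The 15 tested members had a GC content of 31.9% to 41.1%, with a median of 36.0%, whereas the median of all tested genes was 50.0%. The 5th percentile of all tested genes was 40.5%, and every tested member except mt-Nd4l lay below it. GC offsets for the members were thus set at the low end of the range, where few tested genes lie. With offsets for GC content alone, the median log2 fold change of the members was -0.43, and 0 were called. With offsets for GC content and transcript length together, the median was -0.18, 13 of 15 were below 0, and 0 were called. In that fit mt-Atp8 was at 0.016 (SE 0.25, adjusted p = 0.987) and mt-Nd6 at 0.76 (SE 0.34, adjusted p = 0.372). Beyond these fits, the part of fragment length and base composition in the lower mRNA levels of WT libraries was not tested.

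**Figure D4:**
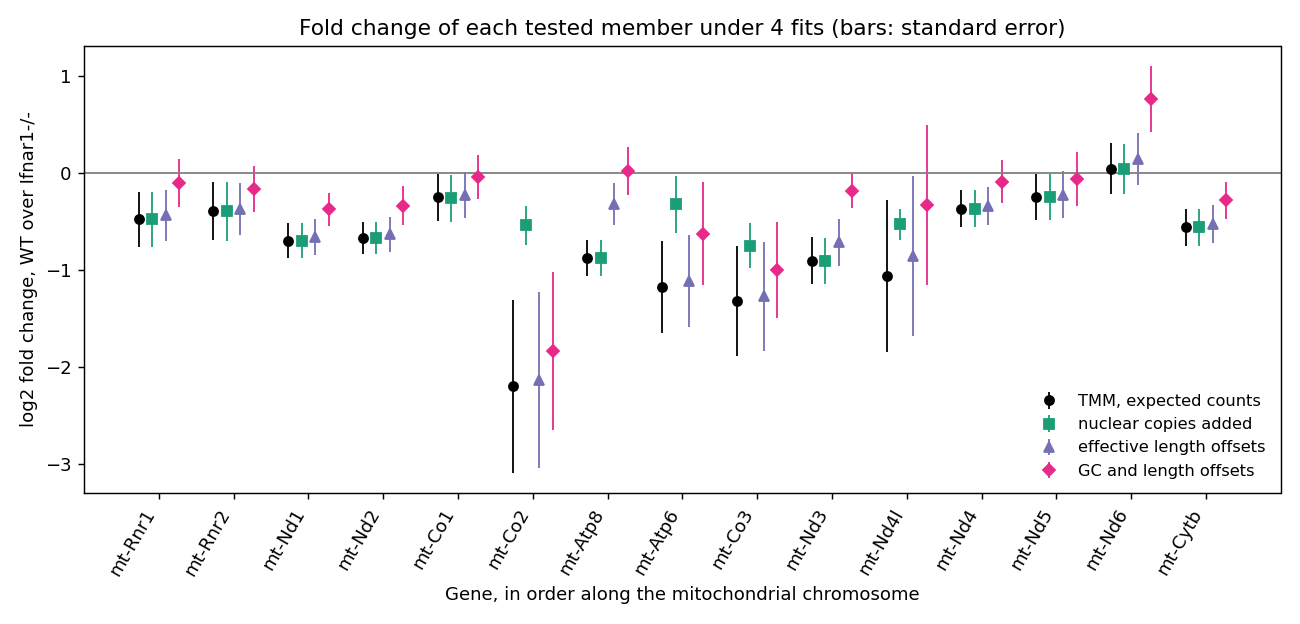
Log2 fold change (WT over Ifnar1-/-) with its standard error for the 15 tested members under 4 fits, namely TMM on expected counts, nuclear copies added, effective length offsets, and GC and length offsets. Adding the copies brings mt-Co2, mt-Atp6, mt-Co3 and mt-Nd4l toward the other genes, and the GC and length offsets bring most members nearer to 0, with mt-Nd6 at 0.76.

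The nuclear genes that serve the mitochondrial genome were described from lists. Of 10 genes of mitochondrial transcription, 8 were tested and 0 were called, with 4 above and 4 below 0. Tfam, which packages mitochondrial DNA and activates its promoters, had 14.2, 15.1 and 16.4 normalized CPM in WT and 18.5, 17.8 and 18.0 in Ifnar1-/- libraries (log2 fold change -0.25, SE 0.17, adjusted p = 0.463). Polrmt, the polymerase, had 14.9, 8.08 and 11.8 in WT and 9.01, 9.66 and 9.38 in Ifnar1-/- libraries (log2 fold change 0.33, SE 0.24, adjusted p = 0.521). Levels of both genes thus differed little, without overlap for Tfam and with overlap for Polrmt.

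Of 38 genes of mitochondrial RNA processing, modification and decay, 35 were tested and 0 were called, with a median log2 fold change of -0.04. Lrpprc, which stabilizes most of the mRNAs, had 38.1, 43.4 and 38.5 normalized CPM in WT and 57.3, 63.5 and 45.1 in Ifnar1-/- libraries, without overlap (log2 fold change -0.47, SE 0.16, adjusted p = 0.163). Pnpt1, the exoribonuclease PNPase, went in the opposite direction with 29.7, 34.9 and 39.9 in WT and 23.7, 17.3 and 29.2 in Ifnar1-/- libraries (log2 fold change 0.57, SE 0.21, adjusted p = 0.184). Mtpap, the poly(A) polymerase, overlapped between the groups (log2 fold change 0.16, SE 0.21, adjusted p = 0.735).

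Among 19 genes of mitochondrial DNA replication, nucleotide supply and packaging, all were tested, 1 was called higher and 0 lower in WT, where 1.67% and 0.462% of all tested genes were. The gene called was Cmpk2, a mitochondrial kinase of pyrimidine nucleotides that is known as an IFN-stimulated gene. Cmpk2 had 72.9, 48.7 and 47.0 normalized CPM in WT and 8.25, 4.41 and 7.54 in Ifnar1-/- libraries, and was 8.33-fold higher in WT (log2 fold change 3.06, SE 0.26, adjusted p = 0.000127). Polg, the replicative DNA polymerase, differed by 0.15 (log2 fold change, SE 0.14, adjusted p = 0.623). Of the 22 mitochondrial tRNA synthetases and related genes, all were tested and 0 were called, with a median log2 fold change of -0.18. In this list 19 genes were below 0, and 20 with GC and length offsets, where 51.8% of all tested genes were below 0 in the main fit.

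The nuclear subunits of the respiratory chain were the closest counterpart of the mitochondrial mRNAs. Of 86 such genes 77 were tested, 75 of them had a log2 fold change below 0, the median was -0.31, and 43 had every WT library below every Ifnar1-/- library. Over all tested genes 51.8% were below 0 and 12.2% had that order of libraries. Only Ndufa12 was called, a supernumerary subunit of complex I, where 0.462% of all tested genes were called lower. It had 12.4, 19.6 and 13.2 normalized CPM in WT and 33.9, 32.0 and 28.3 in Ifnar1-/- libraries (log2 fold change -1.07, SE 0.20, adjusted p = 0.0208). This call was lost with effective length offsets and in 5 of the 6 fits that left out a library, and was kept without WT library 2 (adjusted p from 0.0119 to 0.116 over the 6). By complex, the nuclear median was -0.26 for complex I (37 genes), -0.16 for complex II (4 genes), which has no mitochondrially encoded subunit, -0.29 for complex III (9 genes), -0.35 for complex IV (11 genes) and -0.38 for ATP synthase (16 genes). With copies added, the medians of mitochondrially encoded subunits were -0.53 for complex I (7 genes) and -0.56 for complex III (1 gene). They were -0.54 for complex IV (3 genes) and -0.60 for ATP synthase (2 genes). All these medians lay below 0, and in these fits the mitochondrially encoded median was lower in each complex, a difference that was not tested. Single members lay above the nuclear median of their complex, namely mt-Nd5 (-0.25), mt-Nd6 (0.04), mt-Co1 (-0.26) and mt-Atp6 (-0.32). The ATP synthase median also rests on mt-Atp8, which was at -0.32 with effective length offsets. With the GC and length offsets the nuclear median was -0.11, with 56 of 77 below 0. The median of the 15 tested members, rRNAs included and copies not added, was -0.18 in that fit, so the 2 medians lay closer together.

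**Figure D5:**
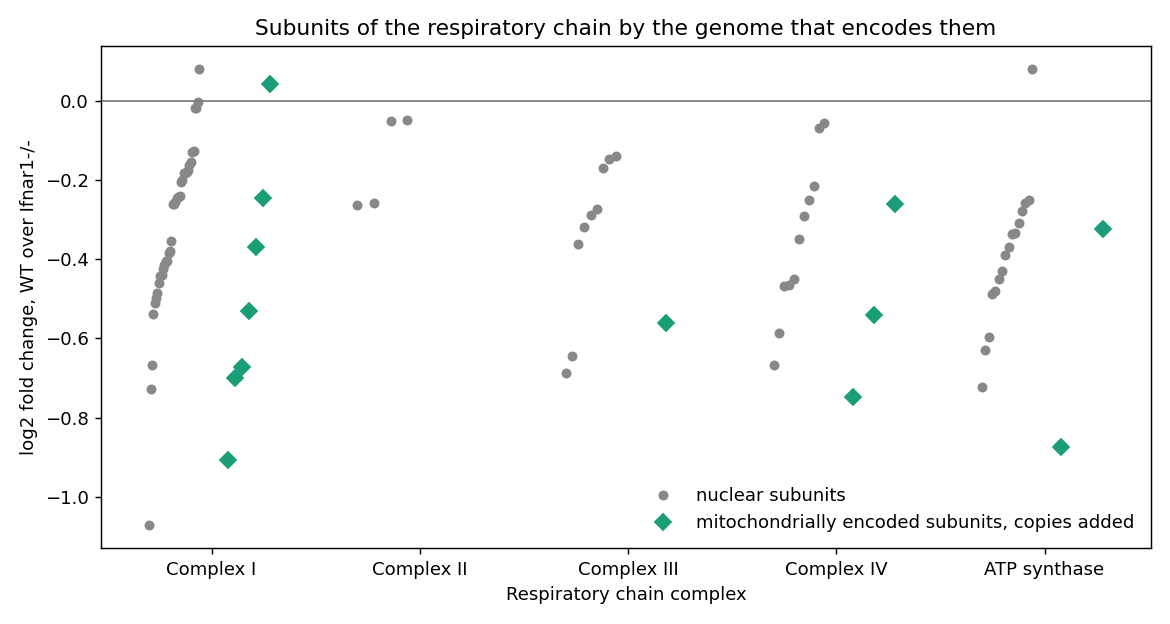
Log2 fold change (WT over Ifnar1-/-) of tested subunits of each respiratory complex, with nuclear-encoded subunits as grey circles and mitochondrially encoded subunits, copies added, as green diamonds. Among nuclear subunits 75 of 77 lie below 0, and among the mitochondrially encoded subunits mt-Nd6 lies above 0.

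The list for mitochondrial mass, which also holds nuclear regulators of mitochondrial biogenesis, gave a similar picture of small differences. Of 14 genes 13 were tested, 10 were below 0, the median was -0.23, and 1 was called, lower in WT, as were 0.462% of all tested genes. This was Hspd1, the matrix chaperonin HSP60, with 54.9, 50.4 and 43.2 normalized CPM in WT and 88.3, 76.6 and 72.6 in Ifnar1-/- libraries (log2 fold change -0.68, SE 0.15, adjusted p = 0.0478). The call for Hspd1 was lost in each of the 6 fits that left out a library (adjusted p from 0.0507 to 0.217) and in 7 of the 12 other alternatives. Among 8 nuclear-retained and structural noncoding RNAs, 0 were called and the median was -0.10.

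A single tested nuclear gene that matches a member was called. Gm20594 (chr6:79817916-79818364) is annotated as protein coding and is 88.5% identical to mt-Rnr2 over 435 bases. It had 2.28, 3.40 and 4.15 normalized CPM in WT and 17.9, 10.3 and 13.8 in Ifnar1-/- libraries, and the groups did not overlap (log2 fold change -2.12, SE 0.31, adjusted p = 0.00444). Against the 89054 to 167916 normalized CPM of mt-Rnr2 these levels are very low, and whether reads of the 2 genes were exchanged was not tested.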

How the data were processed

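Total RNA of sorted monocytes was sequenced in 6 libraries. The authors mapped paired-end reads to GRCm38 with STAR 2.6.0c and RSEM 1.2.31 (per the submitters' processing notes), and deposited expected counts, which are estimated counts that are not normalized, together with TPM and FPKM scaled by the authors to library size and effective length. The labels name the SMARTer Stranded Total RNA-Seq kit and the study's methods a TruSeq Stranded kit. The strand setting and the annotation release are not given in the sources used here. Gene symbols came from GENCODE M21, which matched 54165 of 54232 identifiers.

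Expected counts were rounded and tested with edgeR 4.0.16 in R 4.3.3 (filterByExpr with a minimum count of 10, TMM, quasi-likelihood test, Benjamini-Hochberg adjustment over 11254 genes). Calls needed a 1.5-fold difference and an adjusted p no higher than 0.05, the limits in the study's methods. All adjusted p in the text come from this test unless another is named. Single genes were also compared by exact permutation of log2(normalized CPM + 0.5). Nuclear matches were found with BLAST 2.17.0 (at least 85% identity over 75 bases). Alternatives were RLE, normalization on nuclear genes, other count filters, DESeq2 1.42.0, limma-voom (limma 3.58.1), GC and length offsets, TPM, a replicate block, and leaving out each library. Effective length offsets, GC offsets alone and the addition of nuclear copies were chosen after seeing the data. The study gives as many recipient mice as libraries per group, but labels do not say which libraries share a mouse. The main test therefore does not pair libraries, and its p-values measure the spread between these libraries, which may be technical. The members and lists were chosen with earlier results of these data known. Named genes are all members, genes called in the lists, Tfam, Polrmt, Lrpprc, Pnpt1, Mtpap and Polg, Ifnar1, and tested nuclear genes that match a member. Rn7s2, Ly6c2, Fcgr1, Ccr2 and Lyz2 were named after their values were seen.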

Additional observations from a re-analysis of the deposited data

How the results depend on the processing

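The number of mitochondrially encoded genes called lower in WT was 1 with edgeR and moved to 8 with no filter on low counts, 4 with DESeq2, 2 with the replicate block and 0 with GC and length offsets (with or without the replicate block), GC offsets alone or effective length offsets. It ranged from 0 to 1 when a library was left out, and no setting called a member higher. Over all tested genes, 52 of 11254 were called lower with edgeR, 262 of 21265 with no filter, 115 of 11254 with DESeq2 and 38 of 11254 with the replicate block. The 8 members called with no filter included mt-Co2, mt-Co3, mt-Atp6 and mt-Nd4l, most of whose counts were listed under nuclear copies. In that fit the SE of mt-Co2 was 0.18, against 0.89 with edgeR and the filter. The median log2 fold change of tested members was -0.67, and became -0.18 with GC and length offsets, -0.19 with these and the replicate block, and -0.43 with GC offsets alone. All genes called numbered 240, and 872 with no filter, 469 with DESeq2, and 119 to 245 when a library was left out (148 without WT library 3, 119 and 120 without Ifnar1-/- library 1 or 3). The second member called with the replicate block was mt-Atp6 (log2 fold change -1.41, adjusted p = 0.0404). Deviations of same-numbered libraries correlated by 0.0906, 0.0278 and 0.275, the last being the highest value of any WT and Ifnar1-/- library. WT library 3 correlated negatively with Ifnar1-/- libraries 1 (-0.122) and 2 (-0.134), but WT library 1 correlated as well with Ifnar1-/- library 2 (0.0920). These values do not decide whether the numbers pair libraries, so pairing was left to the replicate block as an alternative.

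Signs reversed for mt-Atp8 with GC and length offsets (0.016, and 0.10 with the replicate block). Leaving out a library gave a log2 fold change from -0.21 to 0.30 for mt-Nd6 (below 0 without WT replicate 1 or Ifnar1-/- replicate 2) and from -0.39 to 0.0091 for mt-Nd5 (above 0 without Ifnar1-/- replicate 2), and a difference in the log2 ratio of mt-Rnr1 to mt-Rnr2 from -0.16 to 0.00033 (above 0 without WT replicate 2). The difference in mRNA share (WT minus Ifnar1-/-) was -0.22 percentage points, and -0.41 in TPM and -0.33 with nuclear copies. Within protein-coding counts it was -0.37, and -0.86 in TPM and -0.55 with copies. The causes were not tested. Of the 268 single-gene fits under alternatives, 243 kept direction and side of the threshold. The member with the fewest counts, mt-Nd4l, had 0 to 141 expected counts per library before its copy was added, out of totals of 4531782 to 7321380.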
